A study of Homo sapiens with 44 samples.

Results

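Interferon-γ (IFNγ) at 1 ng/ml was compared with no cytokine in OVCAR5 cells, an established line that the labels give as ovarian carcinoma and that carries an IFNγ-sensing reporter and CFP. The cells were grown in culture medium with serum and kept in IFNγ without a break for 2, 6, 12 or 24 h, and the unstimulated cells were grown for the same durations. The members were chosen by their treatment label: 4 libraries with IFNγ at 1 ng/ml and 4 unstimulated libraries, 1 of each at every duration, which makes 8 of the 44 libraries of the series. The other libraries used here are the 4 with IFNγ at 0.01 ng/ml, the 4 with IFNγ at 100 ng/ml and the 4 with tumor necrosis factor-α (TNFα) at 1 ng/ml, at the same durations. All libraries are of 1 line, and nothing in the labels says that the libraries of a treatment came from separate cultures. Each treatment has 1 library a duration, so p-values and standard errors do not measure a spread between replicates. They rest on how far libraries lie from a fitted straight line of each treatment's effect on log2 duration. That distance holds curved time courses as well as differences between libraries, which may be technical, and these cannot be told apart.

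IFNγ acts through a receptor of the chains IFNGR1 and IFNGR2, which carry the kinases JAK1 and JAK2. The kinases phosphorylate STAT factors, which enter the nucleus as dimers, bind GAS elements and start the transcription of regulators such as IRF1 and CIITA. These in turn act on ISRE elements and on MHC promoters, and the pathway is known for raising antigen presentation, antiviral proteins, chemokines for T cells and inhibitory ligands on tumor cells.

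The 8 libraries held 10613652 to 13196212 estimated counts, and 8.21% to 9.81% of these were mitochondrially encoded. Of 14 markers of epithelial or ovarian carcinoma cells all had counts, with a summed level of 3494 to 3658 CPM (counts scaled to library size) with IFNγ 1 ng/ml and 3304 to 3626 CPM in unstimulated cells. KRT8, KRT18, KRT19 and EPCAM were abundant and PAX8 was present, while WT1, ESR1 and MUC16 had 4, 6 and 12 counts over the 4 IFNγ libraries and 13, 2 and 10 over the unstimulated ones. Of 12 leukocyte markers, 7 had no count in the IFNγ libraries and 6 had none in the unstimulated ones, and the list summed to 2.05 to 5.01 CPM with IFNγ and 1.29 to 3.11 CPM without. The 8 markers of stroma and endothelium summed to 2.81 to 11.1 CPM with IFNγ and 3.41 to 12.4 CPM without. As in any bulk RNA, a change in the number of responding cells and a change in RNA per cell cannot be told apart.

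The genes called with IFNγ at 1 ng/ml were a limited part of those tested, and most of them rose, in part by very large factors. Of 14469 tested genes, 1089 were called (7.53%), of which 801 rose (5.54%) and 288 fell (1.99%), in the quasi-likelihood test of edgeR at a Benjamini-Hochberg adjusted p under 0.05. The 801 genes that rose had a median log2 fold change of 0.60, with 274 above 1 and 80 above 3, and 349 under 0.5. The 288 that fell had a median of -0.35, and 15 of them fell by more than 1 on the log2 scale. The median over all tested genes was 0.0033. In the same edgeR test 2758 genes had an unadjusted p under 0.05, a count that includes chance ones. A gene that was not called is not shown to be unchanged. In TPM, the deposited abundance per transcript length, the genes that rose summed to 51869, 68851, 77054 and 86287 at 2, 6, 12 and 24 h with IFNγ, against 47636, 48261, 47022 and 47669 in unstimulated cells. A fold change here is the fitted value at the mean of log2 duration, which corresponds to 7.67 h, from a model of all 44 libraries with a slope over time for each treatment.

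The number of calls depended on the libraries and on the model, while DESeq2, other size factors and no filter on low counts kept it within 1.5 times. It was 714 without the 6 h IFNγ library, 704 without the 12 h IFNγ library and 709 without the 12 h unstimulated library, and 383 without slopes over time. With only the 8 libraries it was 254. From the 2 h and 6 h libraries of all treatments 51 genes were called, and from the 12 h and 24 h libraries 613.

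RNA of the components that sense IFNγ was present in unstimulated cells, and RNA of those that transmit it rose in part. Of 8 tested genes of the receptor, the JAK kinases and the STAT factors, 4 rose and none fell, with a median log2 fold change of 0.46. IFNGR1, the chain that binds the ligand, was at 46.9, 37.7, 38.3 and 41.8 CPM at 2, 6, 12 and 24 h with IFNγ and at 45.4, 40.8, 40.3 and 44.1 CPM without, and IFNGR2, the signaling chain, was at 52.4, 43.1, 48.9 and 57.9 CPM with IFNγ and 50.6, 52.7, 54.6 and 68.7 CPM without. Levels of the receptor genes overlapped between the groups, with log2 fold changes of -0.05 ± 0.09 and -0.15 ± 0.17 and edgeR adjusted p of 0.84 and 0.702. JAK1 (0.03 ± 0.06, adjusted p = 0.84) and TYK2 (0.19 ± 0.08, adjusted p = 0.161) were not called either.

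STAT2, a part of the complex ISGF3 with IRF9, was at 60.0, 96.9, 94.6 and 122 CPM at 2, 6, 12 and 24 h with IFNγ, against 20.2, 19.6, 30.5 and 47.3 CPM in unstimulated cells. All 4 IFNγ libraries lay above all 4 unstimulated ones, and STAT2 rose by 1.71 ± 0.12 on the log2 scale (edgeR adjusted p = 3.78e-10). JAK2, the kinase on IFNGR2, stood close to its unstimulated level at 2 h and highest at 6 h, with 22.8, 89.8, 62.3 and 42.3 CPM against 20.7, 22.1, 24.7 and 23.3 CPM, and rose by 1.15 ± 0.24 (adjusted p = 0.00261). STAT3 rose least of the called members, by 0.73 ± 0.12.

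**Figure D1:**
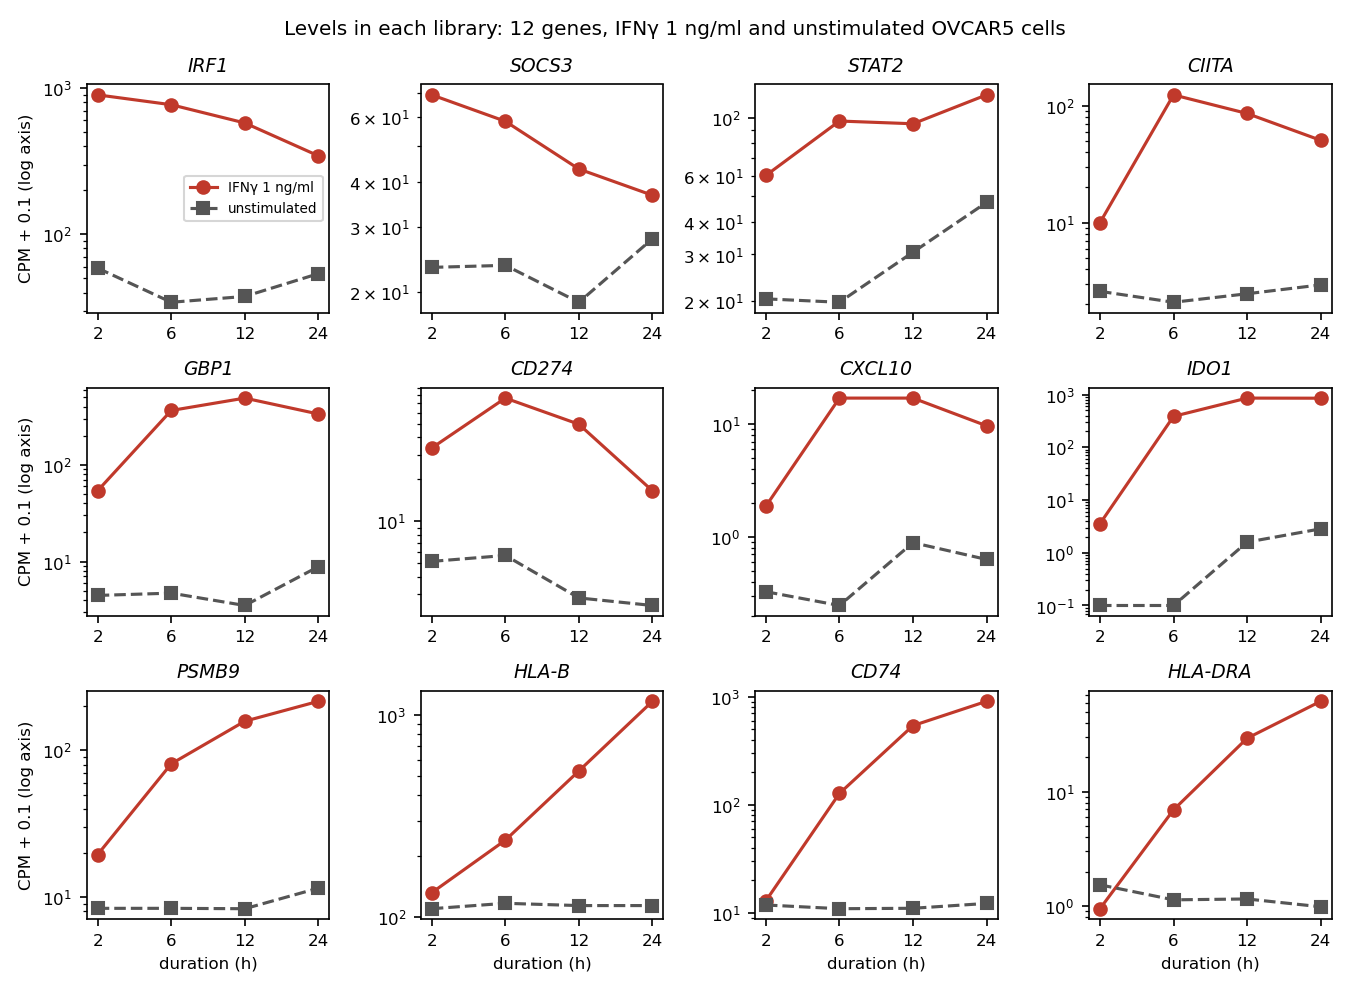
Level of 12 genes in each library, in CPM plus 0.1 on a log axis whose range differs between panels, against duration in h; circles with solid lines are IFNγ 1 ng/ml, squares with dashed lines are unstimulated cells, and each point is 1 library. IRF1 and SOCS3 are highest at 2 h, CIITA and CD274 at 6 h, and PSMB9, HLA-B, CD74 and HLA-DRA at 24 h.

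Of 13 tested transcription factors of the interferon response, 12 rose, none fell, and the median log2 fold change was 2.38. IRF1, a primary regulator of the response, was at 898, 769, 577 and 344 CPM at 2, 6, 12 and 24 h with IFNγ, against 58.6, 34.2, 37.5 and 53.7 CPM in unstimulated cells. Its level was highest in the earliest IFNγ library and lower in each later one, and the groups did not overlap. Its log2 ratio to the unstimulated library of the same duration was largest at 6 h, at 4.48, against 3.93 at 2 h. The fitted log2 fold change was 3.81 ± 0.33 (edgeR adjusted p = 3.74e-08). IRF9, the DNA-binding part of ISGF3, was at 38.5, 63.3, 66.1 and 80.9 CPM with IFNγ and 7.45, 8.72, 12.8 and 21.1 CPM without, a rise by 2.38 ± 0.09 (adjusted p = 4.68e-17). It was already higher at 2 h, and its level in unstimulated cells was higher at each later duration.

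The list also holds the master regulators of the MHC genes. CIITA, the activator of MHC class II genes, was at 9.89, 124, 85.9 and 50.6 CPM with IFNγ, against 2.48, 1.98, 2.36 and 2.83 CPM without, and rose by 4.59 ± 0.46 (edgeR adjusted p = 3.18e-07). NLRC5, its counterpart for MHC class I genes, was at 26, 175, 140 and 112 CPM with IFNγ and 2.86, 4.47, 5.25 and 6.36 CPM without and rose by 4.48 ± 0.25 (adjusted p = 1.43e-11). Both were highest at 6 h. ETV7, a repressor of the ETS family, was at 4.39, 25.4, 24.4 and 17.6 CPM with IFNγ and nearly absent from unstimulated cells, at 0.15, 0.22, 0 and 0.0883 CPM. IRF8, a factor best known from myeloid cells, was at 20.1, 31.4, 19.4 and 5.93 CPM with IFNγ and 1.35, 1.61, 2.1 and 0.618 CPM without, a rise by 3.65 ± 0.31. BATF2 rose by 3.29 ± 0.22, and IRF7, a regulator of type I interferon genes, by 0.74 ± 0.12. BATF3 was the member not called, with 0.74 ± 0.38 (adjusted p = 0.329).

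The promoters of 8 genes that rose are shown because they hold the GAS and ISRE letters through which STAT dimers, ISGF3 and IRF factors are known to bind, and because the genes stand for the main groups: regulators (IRF1, IRF9), adhesion (ICAM1), an inhibitory ligand (CD274), tryptophan use (WARS1), chemokines (CXCL9, CXCL10) and peptide transport (TAP1). Each run is the 250 bases before an annotated gene start in RefSeq on GRCh38.p14, on the strand of the gene. Capitals mark matches to TTCNNNGAA, the GAS letters, which read alike on both strands, and to the ISRE letters, which are GAAA, any NN and again GAAA, or their reverse complement, TTTC, NN and again TTTC. Adjacent ISRE matches that overlap appear as 1 stretch of capitals.
IRF1: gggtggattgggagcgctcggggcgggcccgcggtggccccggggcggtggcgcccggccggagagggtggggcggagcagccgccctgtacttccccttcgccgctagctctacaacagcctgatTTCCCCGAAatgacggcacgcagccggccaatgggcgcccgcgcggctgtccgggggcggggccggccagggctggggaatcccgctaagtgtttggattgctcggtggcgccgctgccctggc
IRF9: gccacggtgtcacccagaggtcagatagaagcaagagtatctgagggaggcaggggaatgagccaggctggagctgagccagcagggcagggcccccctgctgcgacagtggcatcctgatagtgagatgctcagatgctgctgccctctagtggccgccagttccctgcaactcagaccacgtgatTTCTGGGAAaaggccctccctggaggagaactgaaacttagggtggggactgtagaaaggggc
ICAM1: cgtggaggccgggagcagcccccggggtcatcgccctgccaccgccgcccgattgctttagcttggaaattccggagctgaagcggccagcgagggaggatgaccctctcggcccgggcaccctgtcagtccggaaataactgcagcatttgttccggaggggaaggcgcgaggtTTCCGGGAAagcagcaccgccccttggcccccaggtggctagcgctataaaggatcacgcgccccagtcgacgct
CD274: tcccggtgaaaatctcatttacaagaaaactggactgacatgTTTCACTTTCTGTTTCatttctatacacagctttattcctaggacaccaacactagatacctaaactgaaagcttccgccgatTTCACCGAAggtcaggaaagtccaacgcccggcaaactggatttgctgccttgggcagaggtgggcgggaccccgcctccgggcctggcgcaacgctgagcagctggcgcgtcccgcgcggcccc
WARS1: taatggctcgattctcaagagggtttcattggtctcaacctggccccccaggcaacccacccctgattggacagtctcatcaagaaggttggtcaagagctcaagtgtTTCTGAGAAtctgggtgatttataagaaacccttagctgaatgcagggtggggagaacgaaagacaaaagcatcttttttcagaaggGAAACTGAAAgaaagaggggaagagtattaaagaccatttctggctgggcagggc
CXCL9: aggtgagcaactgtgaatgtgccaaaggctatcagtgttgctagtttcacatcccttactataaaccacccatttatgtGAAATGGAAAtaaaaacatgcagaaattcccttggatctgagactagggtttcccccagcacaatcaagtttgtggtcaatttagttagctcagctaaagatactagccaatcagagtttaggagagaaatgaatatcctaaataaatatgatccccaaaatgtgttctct
CXCL10: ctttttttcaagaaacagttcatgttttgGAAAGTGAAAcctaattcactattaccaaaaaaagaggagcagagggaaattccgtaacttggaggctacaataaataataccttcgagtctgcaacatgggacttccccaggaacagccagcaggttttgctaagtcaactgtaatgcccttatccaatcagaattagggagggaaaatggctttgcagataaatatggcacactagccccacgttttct
TAP1: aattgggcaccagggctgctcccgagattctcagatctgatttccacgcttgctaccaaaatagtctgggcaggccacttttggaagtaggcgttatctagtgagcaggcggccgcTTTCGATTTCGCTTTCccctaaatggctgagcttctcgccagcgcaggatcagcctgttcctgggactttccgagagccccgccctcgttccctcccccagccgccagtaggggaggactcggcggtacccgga

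The runs lie at chr5:132490774-132491023 (minus strand) for IRF1, chr14:24161015-24161264 (plus) for IRF9, chr19:10270870-10271119 (plus) for ICAM1 and chr9:5450292-5450541 (plus) for CD274. They lie at chr14:100375348-100375597 (minus) for WARS1, chr4:76007510-76007759 (minus) for CXCL9, chr4:76023498-76023747 (minus) for CXCL10 and chr6:32853705-32853954 (minus) for TAP1. WARS1 and TAP1 each have 1 more annotated start. The window before the other WARS1 start holds neither motif, and that before the other TAP1 start holds GAS letters at 189 bases. The GAS letters begin 124 bases before the start of IRF1, 63 before that of IRF9 and 75 before that of ICAM1. CD274 holds both kinds: a pair of overlapping ISRE matches, the first 208 bases before the start, and a GAS match at 125. WARS1 also holds both, with a GAS match at 142 and an ISRE match at 55 bases. The CXCL9, CXCL10 and TAP1 runs hold ISRE letters, in TAP1 as an overlapping pair, and no GAS letters are in these 3 runs.

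Promoter windows of 300 bases, with the last 50 after the start, were available for 10938 of the 14462 gene symbols tested, 15879 windows in all and up to 12 for 1 gene. The ISRE letters were in 126 of 934 windows of genes that rose (13.5%), against 3.22% of 373 windows of genes that fell and 3.0% of all windows. Among genes that rose by over 1 on the log2 scale the share was 28.2% of 273 windows, and among those that rose by over 3 it was 20.9% of 67 windows. The GAS letters were in 10.7% of windows of genes that rose, 5.36% of those of genes that fell and 6.34% of all. Both motifs together were in 2.57%, 0.0% and 0.397% of these windows. The shares are descriptions, since genes that share a start region share windows and a match is not a shown binding site.

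Inhibitors of interferon signaling rose in part. Of 10 tested feedback genes 3 rose, none fell, and the median log2 fold change was 0.05. SOCS1, the main inhibitor of JAK kinases in IFNγ signaling, was scarce throughout, at 1.77, 4.08, 2.32 and 0.989 CPM with IFNγ and 0.226, 0.513, 0.35 and 0.53 CPM without, and rose by 2.45 ± 0.41 (edgeR adjusted p = 0.00011). SOCS3 was at 69, 58.4, 43.2 and 36.6 CPM with IFNγ, against 23.2, 23.5, 18.6 and 27.8 CPM without, and rose by 1.10 ± 0.18 (adjusted p = 0.00014). Like IRF1, it was highest at 2 h and lower at each later duration. USP18, which removes ISG15 and is known for restraining type I interferon signaling, rose by 1.94 ± 0.18 (adjusted p = 8.92e-09). SOCS2 (-0.66 ± 0.40) and the phosphatases PTPN1 (0.09 ± 0.04), PTPN2 (0.01 ± 0.07) and PTPN11 (-0.08 ± 0.05) were among the members not called.

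**Figure D2:**
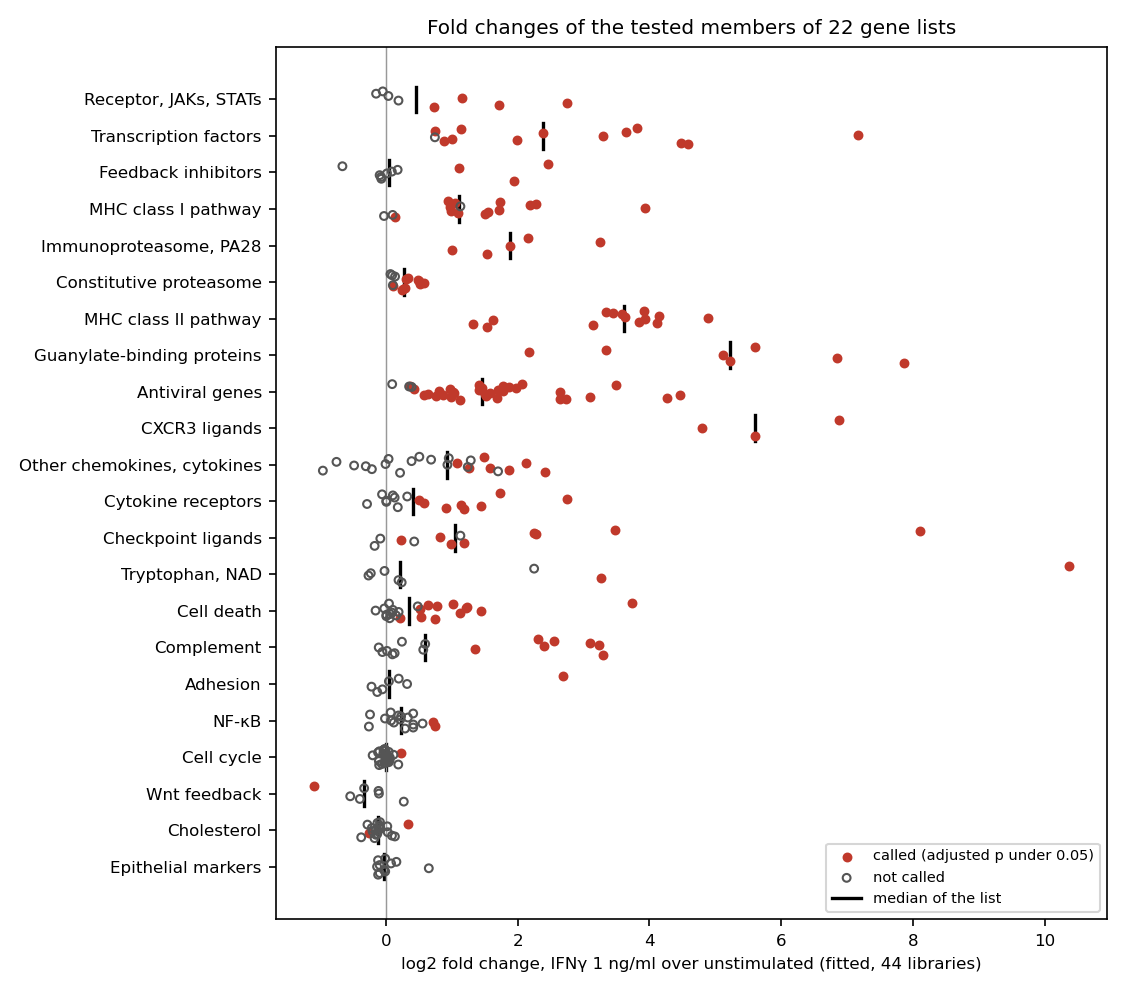
Fitted log2 fold change of IFNγ 1 ng/ml over unstimulated cells (x axis) for every tested member of 22 gene lists (y axis); filled points are called at an edgeR adjusted p under 0.05, open points are not, and bars are list medians. The medians of the MHC class II, guanylate-binding protein and CXCR3 ligand lists are 3.61, 5.22 and 5.60, and those of the cell cycle and epithelial lists are 0 and -0.03.

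Most genes of the MHC class I pathway rose, and HLA-B, HLA-C, HLA-F and B2M stood highest at 24 h. Of 16 tested members 13 rose, none fell, and the median log2 fold change was 1.11. TAP1, a subunit of the transporter that carries peptides into the endoplasmic reticulum, was at 126, 448, 640 and 546 CPM at 2, 6, 12 and 24 h with IFNγ, against 19.9, 24.7, 26.4 and 27.9 CPM without, and rose by 3.93 ± 0.17 (edgeR adjusted p = 2.15e-13). HLA-B, a classical class I heavy chain, was at 132, 240, 528 and 1166 CPM with IFNγ, against 110, 117, 114 and 114 CPM without. Its level was near that of unstimulated cells at 2 h and highest at 24 h, with a fitted rise by 1.72 ± 0.14 (adjusted p = 1.09e-08). B2M, the shared light chain, was at 894, 1241, 1854 and 3113 CPM with IFNγ and 867, 735, 799 and 872 CPM without and rose by 0.96 ± 0.07. HLA-C (1.04 ± 0.09), HLA-E (2.27 ± 0.10), HLA-F (2.18 ± 0.16) and TAP2 (1.72 ± 0.09) also rose. The chaperones CALR and CANX and the chain HLA-G were not called. The HLA genes of a class are related in sequence, some of them closely, so that the split of reads between them is uncertain.

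The proteasome changed in its inducible subunits most. All 5 genes of the immunoproteasome and of PA28, the cap that opens it, rose, with a median of 1.88. PSMB9, an inducible catalytic subunit, was at 19.4, 80.9, 158 and 216 CPM with IFNγ, against 8.28, 8.28, 8.23 and 11.4 CPM without, and rose by 3.25 ± 0.14 (edgeR adjusted p = 2.46e-14). PSMB8 rose by 2.15 ± 0.12, PSMB10 by 1.88 ± 0.11, PSME1 by 1.01 ± 0.06 and PSME2 by 1.53 ± 0.06. Of 14 genes of the constitutive core 10 rose by small amounts, with a median of 0.27. The largest of these were PSMA5 (0.58 ± 0.06), PSMA6 (0.52 ± 0.07), PSMA4 (0.51 ± 0.05) and PSMA3 (0.48 ± 0.05), subunits of the outer ring, whose members also serve the immunoproteasome. PSMB5, PSMB6 and PSMB7, the catalytic subunits that the inducible ones replace, were not called, with 0.07 ± 0.04, 0.09 ± 0.05 and 0.14 ± 0.05.

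MHC class II genes, which present antigen to CD4+ T cells and which epithelial cells normally express at low levels, all rose: 14 of 14 tested members, with a median of 3.61. CD74, the invariant chain that guides class II molecules, was at 12.8, 127, 539 and 905 CPM at 2, 6, 12 and 24 h with IFNγ, against 11.7, 10.8, 10.9 and 12.1 CPM in unstimulated cells, and rose by 3.91 ± 0.22 (edgeR adjusted p = 3.43e-11). HLA-DRA, a class II α chain, was at 0.845, 6.83, 29.2 and 61.6 CPM with IFNγ and 1.43, 1.03, 1.05 and 0.883 CPM without, a fitted rise by 3.34 ± 0.25 (adjusted p = 1.22e-10). At 2 h the IFNγ library was no higher than the unstimulated one for HLA-DRA, and from 6 h it was above all unstimulated libraries. HLA-DPA1 rose by 4.14 ± 0.29 and HLA-DRB1 by 3.44 ± 0.29. HLA-DQA1 had 35 counts in the IFNγ libraries and 0 in the unstimulated ones, which makes it at least 11.9-fold higher against a floor of 3 counts over the unstimulated group. HLA-DOA had 137 counts with IFNγ and 3 without, a ratio of 46.4 (95% exact binomial interval 15.5 to 228, which covers counting error only). The call of HLA-DQA1 was lost in 6 of 8 repeats that left out 1 library, with an adjusted p of up to 0.136.

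Guanylate-binding proteins, interferon-induced GTPases that act on intracellular pathogens, rose in 7 of 7 tested members, with a median log2 fold change of 5.22. GBP1 was at 53.9, 364, 489 and 335 CPM at 2, 6, 12 and 24 h with IFNγ, against 4.36, 4.61, 3.41 and 8.74 CPM in unstimulated cells, and rose by 5.60 ± 0.32 (edgeR adjusted p = 3.95e-11). GBP4 was at 23.9, 454, 685 and 533 CPM with IFNγ and 4.29, 6.45, 10.4 and 16 CPM without, and GBP5 was at 6.34, 54.8, 119 and 141 CPM with IFNγ and 0.226, 0.366, 1.14 and 0.177 CPM without. For GBP1 and GBP4 the level was highest at 12 h, and for GBP5 at 24 h. GBP2 rose by 3.35 ± 0.39 and GBP3 by 2.17 ± 0.17. GBP7 had 186 counts with IFNγ and 2 without, a ratio of 94.5 (95% exact binomial interval 25.8 to 786), and GBP6, with 26 and 0 counts, was at least 8.81-fold higher. The call for GBP6 was kept in 5 of 8 repeats that left out 1 library.

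Of 35 tested antiviral genes 32 rose, none fell, and the median was 1.46. The largest changes were those of XAF1 (4.46 ± 0.39), a pro-apoptotic partner of XIAP, ZBP1 (4.26 ± 0.71), a sensor of Z-form nucleic acids, OAS2 (3.50 ± 0.32), an enzyme that activates RNase L, and SAMD9L (3.09 ± 0.34). OAS2 was at 4.65, 36.2, 69.5 and 81.9 CPM with IFNγ, against 2.03, 2.05, 3.33 and 5.39 CPM without. IFIT1, IFIT2 and MX2 were not called, with 0.35 ± 0.14, 0.39 ± 0.13 and 0.09 ± 0.05 (edgeR adjusted p = 0.161, 0.075 and 0.32). DESeq2 called IFIT2, with an adjusted p of 0.0424. Genes of the same families rose, MX1 by 2.06 ± 0.20, IFIT3 by 1.87 and IFIT5 by 1.46. ZBP1 rests on 31 counts with IFNγ and 1 without, a ratio of 31.5 (95% exact binomial interval 5.25 to 1280).

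Ubiquitin-like modifiers and related enzymes rose as well. Of 6 genes of the ISG15 and FAT10 systems 5 rose. UBD, which encodes the modifier FAT10, was at 3.21, 20, 54.1 and 66.2 CPM with IFNγ, against 0, 0, 0.875 and 3.36 CPM without, and rose by 7.03 ± 0.69 (edgeR adjusted p = 2.07e-07). Its call was kept in all 8 repeats that left out 1 library, but the fitted log2 fold change ranged there over 6.32 to 8.63, and it was 5.20 in the fit without slopes. UBE2L6, the conjugating enzyme of ISG15, rose by 3.24 ± 0.24 and ISG15 itself by 0.94 ± 0.12. Of 7 PARP and DTX3L genes 6 rose, led by PARP9 (2.96 ± 0.24) and PARP14 (2.51 ± 0.29). Of 9 TRIM ubiquitin ligases 8 rose, led by TRIM22 (4.62 ± 0.27), at 2.11, 11.5, 27.7 and 46.2 CPM with IFNγ and 0.301, 0.293, 0.613 and 1.85 CPM without. All 5 tested APOL genes, which encode apolipoproteins L, rose. APOL6 was at 1005, 2368, 1849 and 1446 CPM with IFNγ and 268, 309, 277 and 339 CPM without, and APOL4, with 74 counts and 0, was at least 25.1-fold higher.

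The 3 ligands of CXCR3, the receptor that draws activated T cells, rose but stayed at low levels. CXCL9 was at 0.76, 6, 6.73 and 6.18 CPM at 2, 6, 12 and 24 h with IFNγ, against 0, 0, 0.0875 and 0.177 CPM without. With 243 counts in the IFNγ libraries and 3 in the unstimulated ones, its ratio was 82.3 (95% exact binomial interval 27.8 to 402). CXCL10 was at 1.77, 16.9, 16.9 and 9.56 CPM with IFNγ and 0.226, 0.146, 0.788 and 0.53 CPM without, a rise by 4.79 ± 0.52 (edgeR adjusted p = 9.58e-07). CXCL11 was at 1.01, 12.3, 22 and 8.9 CPM with IFNγ and 0.226, 0.0732, 0.0875 and 0.353 CPM without, a rise by 5.60 ± 0.56 (adjusted p = 2.14e-07). None of the 3 was highest at 24 h at this dose.

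Among 23 other chemokines and cytokines 7 rose, none fell, and the median was 0.93. TNFSF13B, the B-cell factor BAFF, was at 1.35, 8.25, 13.9 and 14.6 CPM with IFNγ and 1.05, 1.03, 1.84 and 1.77 CPM without and rose by 2.42 ± 0.30 (edgeR adjusted p = 1.82e-06). CSF1, the macrophage growth factor, was at 67.3, 123, 76 and 68.4 CPM with IFNγ, against 15.7, 16.2, 15.8 and 28.9 CPM without, and rose by 2.12 ± 0.20 (adjusted p = 8.19e-08). IL32 rose by 1.87 ± 0.21. IL15 and IL7, which sustain lymphocytes, rose by 1.26 ± 0.19 and 1.58 ± 0.27. Of 16 cytokine receptors and binding proteins 8 rose, led by IL18BP (2.75 ± 0.24), the secreted inhibitor of interleukin 18, IL15RA (1.73 ± 0.15), which presents IL15, and the death receptor FAS (1.45 ± 0.22).

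Ligands that restrain T cells included some of the largest changes. Of 12 tested checkpoint and inhibitory ligands 8 rose, none fell, and the median was 1.05. CD274, which encodes PD-L1, was at 33.4, 76.3, 49.5 and 16.4 CPM at 2, 6, 12 and 24 h with IFNγ, against 5.04, 5.57, 2.71 and 2.38 CPM in unstimulated cells, and rose by 3.47 ± 0.29 (edgeR adjusted p = 9.98e-09). The groups did not overlap, and the level was highest at 6 h. PDCD1LG2, which encodes PD-L2 and lies beside CD274 on chromosome 9, had 172 counts with IFNγ and 2 without, a ratio of 87.4 (95% exact binomial interval 23.8 to 727). LGALS9, a lectin that binds TIM-3, was at 3.55, 10.3, 25.8 and 39.4 CPM with IFNγ and 2.48, 2.42, 2.89 and 4.24 CPM without and rose by 2.25 ± 0.16 (adjusted p = 3.43e-11).

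IDO1, the first enzyme of tryptophan breakdown, had the largest fitted rise of the genes that were above their unstimulated level at every duration. It was at 3.46, 386, 858 and 854 CPM at 2, 6, 12 and 24 h with IFNγ, against 0, 0, 1.49 and 2.74 CPM in unstimulated cells. The rise was 10.37 ± 0.32 on the log2 scale (edgeR adjusted p = 4.71e-16), and between 9.41 and 12.67 when 1 library was left out; the unstimulated libraries at 2 h and 6 h held no count. WARS1, the tryptophanyl-tRNA synthetase, was at 199, 1206, 2513 and 2262 CPM with IFNγ and 128, 114, 108 and 104 CPM without and rose by 3.27 ± 0.19 (adjusted p = 5.55e-11). The other 6 tested genes of tryptophan and NAD metabolism, among them KYNU (-0.23 ± 0.29) and NAMPT (0.19 ± 0.10), were not called.

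Other genes among the 12 largest rises included ZNF804A and a pair of antisense RNAs. ZNF804A, a zinc finger gene, had 90 counts with IFNγ and 0 without, at least 30.5-fold higher. ENSG00000254287, antisense within IDO1, had 36 counts and 0, at least 12.2-fold higher, and ENSG00000258666, antisense to WARS1, was at 1.01, 7.25, 10.5 and 12.4 CPM with IFNγ and 0, 0, 0.525 and 0 CPM without. The library kit keeps strand, but the strand that was counted is not given in the sources used here, so that reads of the sense genes and of these antisense RNAs cannot be told apart.

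Cell death genes rose in part. Of 24 tested members 12 rose, none fell, and the median was 0.35. CASP1, the inflammatory caspase, was at 0.929, 6.25, 13.5 and 24.6 CPM with IFNγ and 0.376, 0.293, 0.263 and 1.59 CPM without and rose by 3.73 ± 0.35 (edgeR adjusted p = 8.47e-09). The pore-forming genes GSDMB and GSDMD rose by 1.23 ± 0.16 and 1.22 ± 0.12. Of 15 complement genes 7 rose, with a median of 0.59. SERPING1, the inhibitor of C1, rose by 3.29 ± 0.38, C2 by 3.10 ± 0.60, and the proteases C1S by 2.55 ± 0.31 and C1R by 2.31 ± 0.22. C4A (3.23 ± 0.54) and C4B (2.39 ± 0.29) are near-identical copies, and their split is uncertain. Of 7 adhesion genes only ICAM1, the ligand of LFA-1, was called; it was at 200, 435, 309 and 164 CPM with IFNγ, against 37.9, 35.6, 36.7 and 51.3 CPM without, and rose by 2.69 ± 0.29 (adjusted p = 8.24e-07).

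Several lists had small median changes, but their shares of called genes were not all below the 7.53% called over all tested genes. The median log2 fold change was 0.23 for NF-κB genes, 0.24 for immediate early genes and -0.13 for cholesterol genes, against 0.0033 over all tested genes. Of 17 NF-κB genes 2 rose, BIRC3 (0.74 ± 0.22) and BCL3 (0.72 ± 0.17), and BIRC3 was called in 1 of 8 repeats that left out a library. Of 16 immediate early genes KLF4 (0.98 ± 0.07) and JUNB (0.97 ± 0.23) rose and IER3 (-0.31 ± 0.10) fell, and their calls were kept in 8, 5 and 3 of the 8 repeats. Of 29 cell cycle genes 1 was called, CCND1 (0.22 ± 0.06), in 3 of the 8 repeats as well, and the median was 0 to 2 decimals. None of 11 tested epithelial markers was called. Of 20 cholesterol genes 1 rose and 1 fell, with SC5D (-0.26 ± 0.08) as the gene that fell, a call kept in 4 of the 8 repeats.

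Apart from a readthrough transcript, the named genes with the largest falls were at low levels, at most 16.3 CPM in any of the 8 libraries (AXIN2). RASD2, a small GTPase, was at 3.55, 3.08, 3.09 and 7 CPM at 2, 6, 12 and 24 h with IFNγ, against 6.17, 7.54, 10.9 and 10.5 CPM in unstimulated cells, and fell with a log2 fold change of -1.10 ± 0.20 (edgeR adjusted p = 0.000333). It was the only one of the 12 largest falls whose call held in all 8 repeats that left out 1 library. AXIN2, a feedback inhibitor and target of Wnt signaling, was at 2.45, 1.42, 2.55 and 8.82 CPM with IFNγ and 3.61, 3.88, 8.05 and 16.3 CPM without and had a log2 fold change of -1.09 ± 0.27 (adjusted p = 0.00987). Its adjusted p was 0.0543 without the 12 h unstimulated library. Of 7 tested Wnt feedback genes it was the 1 called. SLC40A1, the iron exporter ferroportin, was at 0.76, 0.917, 0.387 and 2.14 CPM with IFNγ and 1.43, 1.17, 2.01 and 4.33 CPM without (-1.06 ± 0.30, adjusted p = 0.0254), and 3 of 8 such repeats kept its call.

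**Figure D3:**
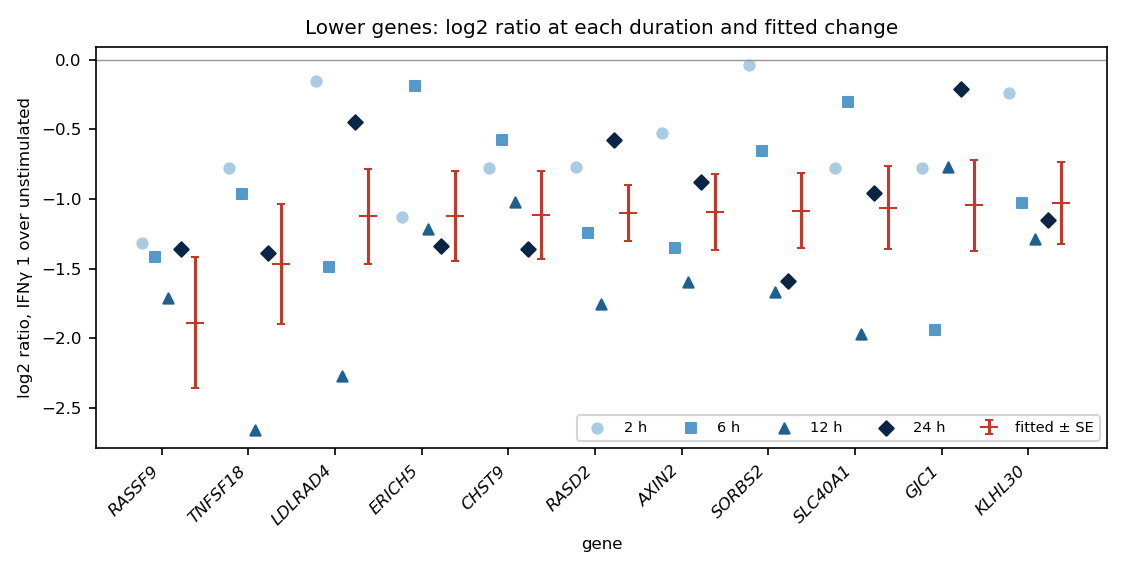
Log2 ratio of IFNγ 1 ng/ml over unstimulated cells (y axis) at each duration, from 1 library a side, for 11 of the 12 genes with the largest falls (x axis), beside the fitted log2 fold change with its SE. All ratios lie below 0, as the rule for naming these genes required, and RASD2 has the smallest SE, 0.20.

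The other named falls were RASSF9 (-1.89 ± 0.47), TNFSF18 (-1.46 ± 0.43), LDLRAD4 (-1.12 ± 0.34), ERICH5 (-1.12 ± 0.32), CHST9 (-1.12 ± 0.32), SORBS2 (-1.09 ± 0.27), GJC1 (-1.05 ± 0.32) and KLHL30 (-1.03 ± 0.29). Each was under 6 CPM in all 8 libraries, and each lost its call in at least 2 of the 8 repeats that left out 1 library. LDLRAD4, ERICH5, CHST9 and SLC40A1 were not called by DESeq2. BLOC1S5-TXNDC5, a readthrough transcript of neighboring genes, was listed at 0 CPM in all libraries with IFNγ 1 ng/ml and at 22, 11, 33.2 and 22.1 CPM in the unstimulated ones. Its call was kept in 1 of 8 repeats that left out 1 library, with an edgeR adjusted p of up to 0.153. At 2, 6, 12 and 24 h it was at 0, 9.28, 0 and 7.0 CPM with IFNγ 0.01 ng/ml and 30.2, 10.2, 0 and 0 CPM with 100 ng/ml. With TNFα 1 ng/ml it was at 12.3, 18.5, 0 and 0 CPM. It shares its reads with TXNDC5 and BLOC1S5, which were not called (0.07 ± 0.05 and -0.18 ± 0.10), and its own level is uncertain.

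A straight slope over time of the effect of IFNγ at 1 ng/ml was called for few genes, and most of the called slopes were positive. An effect that rises and then falls is largely missed by this test, and its curvature enters the error. The slope of the effect on log2 duration was called for 57 of 14469 genes (0.394%), of which 52 were positive (0.359%) and 5 negative (0.0346%). The positive slopes were called for all 5 immunoproteasome and PA28 genes, 9 of 16 MHC class I genes, 5 of 14 MHC class II genes and 5 of 14 constitutive proteasome genes. They were called for none of the 13 transcription factors, the 7 guanylate-binding proteins or the 3 CXCR3 ligands. A slope that was not called does not show a constant effect. The median log2 ratio of the guanylate-binding proteins was 1.7, 4.63, 5.21 and 3.76 at 2, 6, 12 and 24 h. The steepest were HLA-DPA1 (1.92 ± 0.28 per doubling of duration, edgeR adjusted p = 0.000191), HLA-DRA (1.80 ± 0.22), CD74 (1.75 ± 0.18), HLA-DRB1 (1.62 ± 0.26), WARS1 (1.12 ± 0.14), HLA-F (1.08 ± 0.13), C1R (0.96 ± 0.18) and HLA-B (0.87 ± 0.11). The count of called slopes rested on the 2 h libraries: it was 17 without the 2 h IFNγ library and 10 without the 2 h unstimulated library.

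Negative slopes were called for 5 genes, 3 of them abundant enough to be named. BCL6, a transcriptional repressor, was at 27.8, 18.8, 14.4 and 27.9 CPM at 2, 6, 12 and 24 h with IFNγ, against 7.22, 8.06, 16.6 and 37.4 CPM without. It was higher with IFNγ at 2 h and 6 h and lower at 12 h and 24 h, while the unstimulated level was higher at each later duration, and the slope was -0.71 ± 0.11 (edgeR adjusted p = 0.000498). FZD5, a Wnt receptor, was at 56.8, 36.2, 29.4 and 31.1 CPM with IFNγ and 20.8, 19.6, 21.8 and 26.5 CPM without, with a slope of -0.35 ± 0.07 (adjusted p = 0.0179). Its groups did not overlap, and the IFNγ level was highest at 2 h. ARMC9 was the other named gene, with a slope of -0.26 ± 0.06.

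**Figure D4:**
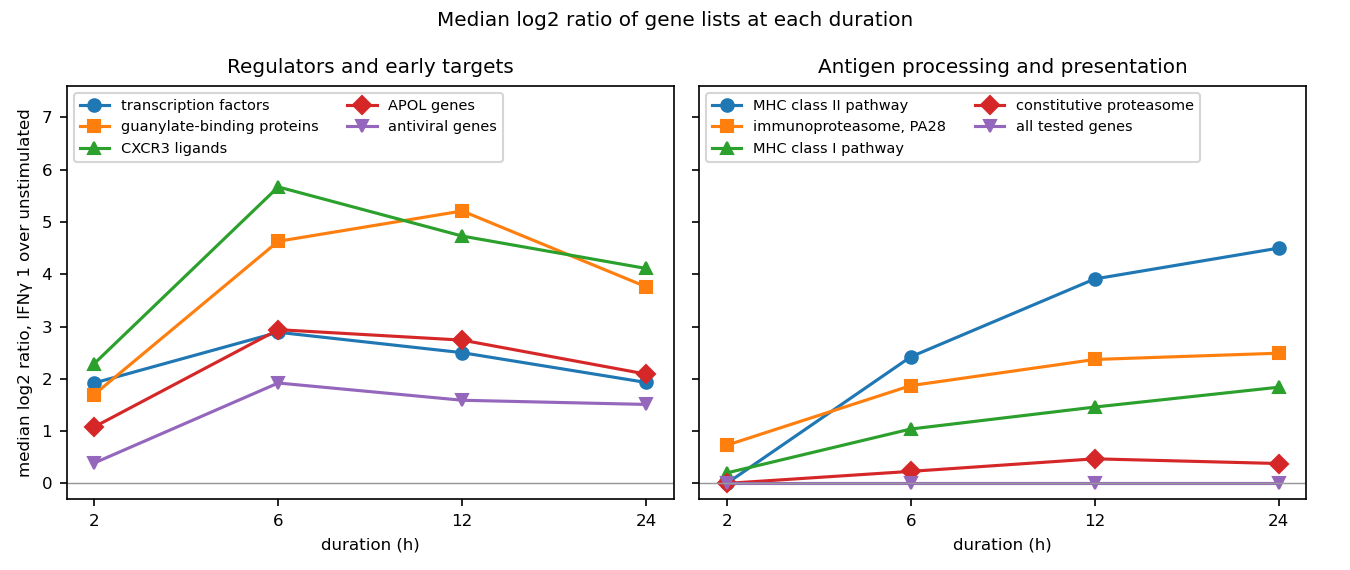
Median log2 ratio of IFNγ 1 ng/ml over unstimulated cells (y axis) at each duration in h (x axis), from 1 library a side, for 9 gene lists and for all tested genes. The CXCR3 ligand median is 5.67 at 6 h and 4.11 at 24 h, while the MHC class II median is 0.0 at 2 h and 4.5 at 24 h.

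At single durations log2 ratios of 1 library a side are given without a test. The genes that rose had a median log2 ratio of 0.165 at 2 h, 0.757 at 6 h, 0.727 at 12 h and 0.601 at 24 h, and those that fell of -0.101, -0.324, -0.544 and -0.379. The ratio was largest in size at 2 h for 24 genes that rose, at 6 h for 274, at 12 h for 341 and at 24 h for 162. For the transcription factor list the median log2 ratio was 1.92 at 2 h, 2.89 at 6 h, 2.5 at 12 h and 1.93 at 24 h. For the immunoproteasome and PA28 it was 0.73, 1.87, 2.37 and 2.49, and for MHC class I genes 0.2, 1.04, 1.46 and 1.84. The ratio was largest at 24 h for 10 of 16 class I and 10 of 14 class II members, and at 6 h for 9 of 13 transcription factors and all 7 PARP and DTX3L genes.

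Most listed genes that rose at 1 ng/ml stood higher there than at 0.01 ng/ml. Of the 14469 genes 784 differed between IFNγ 1 and 0.01 ng/ml (5.42%), with 677 higher (4.68%) and 107 lower (0.74%) at 1 ng/ml. This comparison and those that follow share the IFNγ 1 ng/ml libraries with the first. All 7 guanylate-binding proteins, all 5 immunoproteasome and PA28 genes, 13 of 16 MHC class I genes, 13 of 14 class II genes and 12 of 13 transcription factors were higher at 1 ng/ml. IDO1 was at 3.46, 386, 858 and 854 CPM at 1 ng/ml and 0, 0.719, 1.14 and 3.7 CPM at 0.01 ng/ml, a difference of 9.23 ± 0.29 on the log2 scale (edgeR adjusted p = 1.65e-15). GBP5 was at 6.34, 54.8, 119 and 141 CPM at 1 ng/ml and 0.532, 0.779, 0.243 and 0.875 CPM at 0.01 ng/ml (6.46 ± 0.45). IRF1 was at 898, 769, 577 and 344 CPM at 1 ng/ml and 215, 61.3, 47.8 and 54.5 CPM at 0.01 ng/ml. At 0.01 ng/ml it was highest at 2 h, and at 24 h it was near the unstimulated level of 53.7 CPM. Among the genes lower at 1 ng/ml, DENND2D (-1.89 ± 0.48), LDLRAD4 (-1.40 ± 0.34) and ERICH5 (-1.29 ± 0.32) differed most. DENND2D was scarce, at 0.169, 0.167, 0.155 and 0.494 CPM at 1 ng/ml and 1.06, 0.359, 0.811 and 1.36 CPM at 0.01 ng/ml. In unstimulated cells it was at 0.451, 0.366, 0.35 and 0.442 CPM, and against these it was not called (-0.82 ± 0.54, edgeR adjusted p = 0.453). The count was 511 without the 6 h library at 1 ng/ml, 237 without slopes over time and 245 with only the libraries compared.

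Few genes were called higher still at 100 ng/ml. In the edgeR test of IFNγ 100 against 1 ng/ml 482 genes were higher and 291 lower at 100 ng/ml at an unadjusted p under 0.05. Chance alone gives such a p to a share of about 0.05 of genes without a difference. After adjustment 25 genes were called (0.173%), all of them higher at 100 ng/ml. None was called lower, where DESeq2 called 4. The 8 largest were the CXCR3 ligands CXCL9 (2.31 ± 0.17), CXCL10 (1.84 ± 0.27) and CXCL11 (1.73 ± 0.26), SOCS1 (1.71 ± 0.27), SERPING1 (1.48 ± 0.23), IDO1 (1.16 ± 0.16), CD274 (1.05 ± 0.20) and TRIM22 (0.98 ± 0.15). None of the guanylate-binding proteins, MHC genes, proteasome genes or listed transcription factors was called. GBP1 was at 47.9, 452, 784 and 1075 CPM at 100 ng/ml and 53.9, 364, 489 and 335 CPM at 1 ng/ml, a difference of 0.60 ± 0.22 (edgeR adjusted p = 0.644). These differences are fitted at 7.67 h, and some uncalled genes stood further apart at 24 h. GBP5 was at 6.15, 76.8, 299 and 1299 CPM at 100 ng/ml and 6.34, 54.8, 119 and 141 CPM at 1 ng/ml. CD74 was at 12.7, 138, 695 and 1957 CPM at 100 ng/ml and 12.8, 127, 539 and 905 CPM at 1 ng/ml. HLA-G was lower at 100 ng/ml at 24 h, at 2.63 against 3.87 CPM. A difference that was not called does not show that the doses act alike.

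At 100 ng/ml CXCL9, CXCL10 and IDO1 stood higher in each later library, and at 1 ng/ml they did not. CXCL10 was at 1.03, 37.2, 111 and 267 CPM at 2, 6, 12 and 24 h with 100 ng/ml, against 1.77, 16.9, 16.9 and 9.56 CPM with 1 ng/ml. CXCL9 was at 1.62, 15.4, 52.1 and 189 CPM with 100 ng/ml and 0.76, 6, 6.73 and 6.18 CPM with 1 ng/ml, and IDO1 was at 2.48, 674, 2579 and 6708 CPM with 100 ng/ml and 3.46, 386, 858 and 854 CPM with 1 ng/ml. All 3 were at a few CPM with both doses at 2 h, and the doses differed most at 24 h. SOCS1, the inhibitor, was at 2.05, 7.8, 10.6 and 15.3 CPM with 100 ng/ml and 1.77, 4.08, 2.32 and 0.989 CPM with 1 ng/ml, and SERPING1 was at 1.28, 4.14, 8.84 and 25.3 CPM with 100 ng/ml and 0.76, 2, 2.47 and 4.78 CPM with 1 ng/ml. Both were higher at the higher dose in every pair of libraries of 1 duration. CD274 was at 28, 124, 121 and 105 CPM with 100 ng/ml, against 33.4, 76.3, 49.5 and 16.4 CPM with 1 ng/ml. IRF1 was at a like level in all 4 libraries at 100 ng/ml, with 926, 1015, 996 and 1063 CPM, against 898, 769, 577 and 344 CPM at 1 ng/ml, but its difference of 0.68 ± 0.29 was not called (edgeR adjusted p = 0.788).

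The difference of slopes between these doses was tested after the values were seen. It was called for 10 of 14469 genes (0.0691%), all steeper at 100 ng/ml. At an unadjusted p under 0.05, 459 genes were steeper and 287 less steep, counts that include chance ones. The slope difference was 1.39 ± 0.16 per doubling for CXCL9 (edgeR adjusted p = 8.31e-05), 1.74 ± 0.25 for CXCL11 (adjusted p = 0.00188), 1.64 ± 0.25 for CXCL10 (adjusted p = 0.00499) and 1.00 ± 0.14 for IDO1 (adjusted p = 0.00188). LAP3, GCH1 and LGALS9 were also called. For SOCS1, CD274 and IRF1 the adjusted p was 0.124, 0.133 and 1. From the 2 h and 6 h libraries alone no gene was called between 100 and 1 ng/ml, and from the 12 h and 24 h libraries 69 were, all higher at 100 ng/ml. The count of 25 was 7 without the 2 h library at 1 ng/ml, 9 without the 24 h library at 1 ng/ml, and 9 to 16 without a library at 100 ng/ml.

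**Figure D5:**
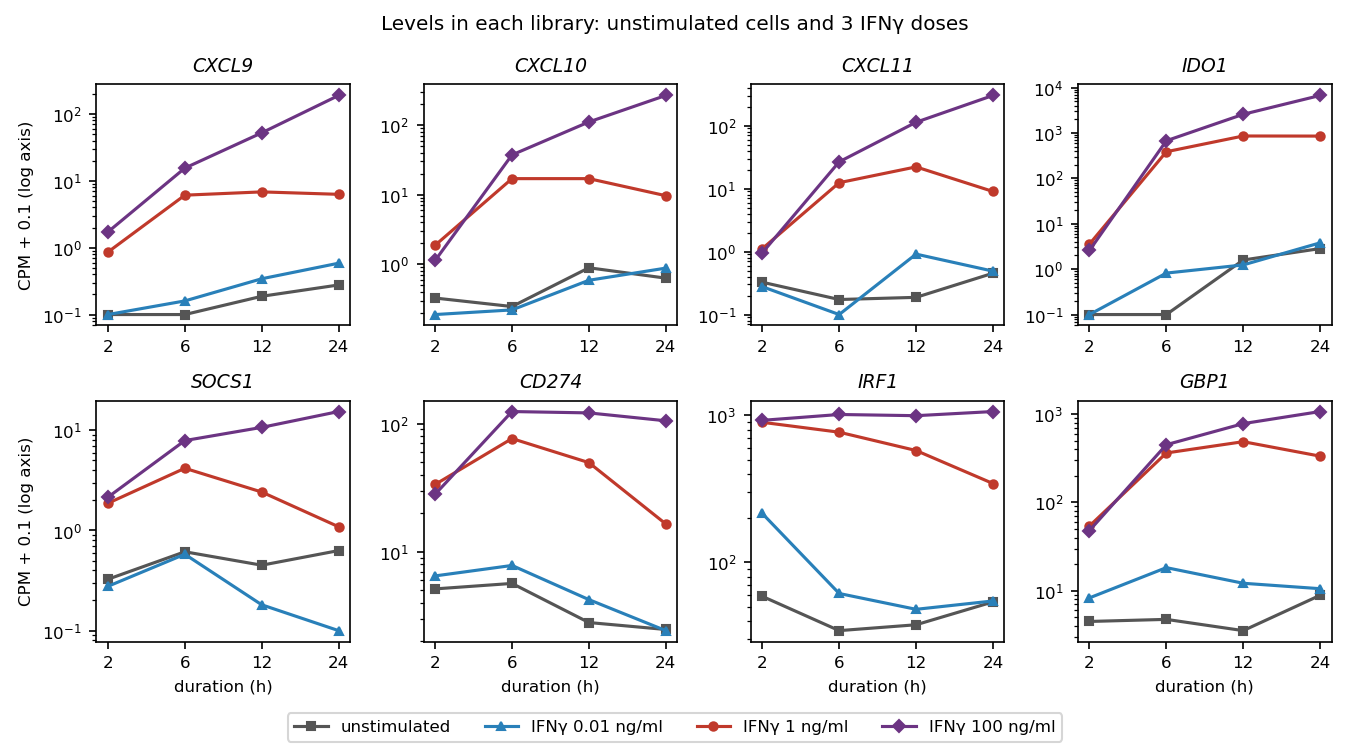
Level of 8 genes in each library, in CPM plus 0.1 on a log axis whose range differs between panels, against duration in h, for unstimulated cells and for IFNγ at 0.01, 1 and 100 ng/ml; each point is 1 library. At 24 h CXCL9, CXCL10, CXCL11, IDO1 and SOCS1 lie far higher at 100 than at 1 ng/ml, while GBP1 differs less between these doses.

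Set against TNFα at the same concentration, IFNγ gave higher levels of antigen presentation and antiviral genes and lower levels of NF-κB genes. Of the tested genes 2484 differed (17.2%), 1163 higher (8.04%) and 1321 lower (9.13%) with IFNγ 1 than with TNFα 1 ng/ml. Higher with IFNγ were all 7 guanylate-binding proteins, 29 of 35 antiviral genes, 11 of 14 class II genes, 11 of 16 class I genes, all 5 immunoproteasome and PA28 genes and the 3 CXCR3 ligands. Lower with IFNγ were all 17 NF-κB genes and 16 of 23 other chemokines and cytokines. IDO1 was at 3.46, 386, 858 and 854 CPM with IFNγ and 0.179, 1.39, 1.26 and 1.76 CPM with TNFα (8.29 ± 0.26 on the log2 scale, edgeR adjusted p = 2.96e-15). CXCL8, a neutrophil chemokine, was at 5.91, 4, 3.4 and 4.12 CPM with IFNγ and 879, 198, 193 and 44.8 CPM with TNFα (-5.63 ± 0.45, adjusted p = 9.38e-09). TRIM22 differed by 4.60 ± 0.27, and LTB, TNF, CCL20 and CSF2, cytokine genes known as NF-κB targets, by -7.30 ± 0.57, -7.01 ± 0.58, -6.02 ± 0.62 and -5.84 ± 0.61. The count was 1580 without slopes over time and 1097 with only the libraries compared.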

How the data were processed

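RNA of OVCAR5 cells was sequenced from poly(A) libraries made with a stranded kit, per the labels' protocols. The submitters' processing notes name STAR, Salmon and UMI-tools among other tools, and the build GRCh38. Their order, the annotation and the strand counted were not given in the sources used here. The deposited tables hold, for 33538 gene identifiers, estimated counts from Salmon and TPM, and the authors made 1 table a library. Estimated counts were rounded to whole numbers, 19.11% to 20.27% of genes with a fractional value in the 8 libraries. TPM values were used in 1 sum only.

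Symbols came from a gene name table for 33113 identifiers and from GENCODE v29 for 343, and 82 had none. All 44 libraries (11 treatments at 4 durations, 1 library each, 9586125 to 16270128 estimated counts) were fitted together with edgeR 4.0.16 in R 4.3.3: robust quasi-likelihood fit, TMM scaling, filter by expression with a minimum count of 10 and a minimum total of 15, terms for duration, treatment and a slope of each treatment on log2 duration, and 20 residual degrees of freedom. p-values were adjusted by Benjamini-Hochberg over all 14469 tested genes and read at 0.05. Values after ± in a fold change are standard errors. CPM are rounded estimated counts scaled to library size, with the TMM factor except in sums over cell markers, and log2 ratios at 1 duration used a prior count of 2. Ratios of scarce genes were taken over summed counts with exact binomial intervals of 95%, and lower bounds against 3 counts over the unstimulated group; both cover counting error only. The fit was tested on data simulated from its own model, in which treatment effects follow straight lines on log2 duration. Effects with a curved course were not covered.

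Named genes were the 12 largest rises and 12 largest falls among called genes with a mean log2 CPM of at least 0 and 1 sign at all 4 durations, and up to 8 in each direction in the other comparisons. From longer lists the 4 largest changes and key regulators or inhibitors were named, and other members named were chosen after their values were seen. The groups compared and the gene lists were chosen with earlier results of these data known. Alternatives were DESeq2 1.42.0, RLE scaling, no filter, no slopes, early or late durations only, only the libraries compared, leaving out each library, and a shorter promoter window. Promoter sequences and starts are from RefSeq. Some items are not reported here.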

Additional observations from a re-analysis of the deposited data

Results flagged for a closer look

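A straight slope of the effect of IFNγ at 1 ng/ml on log2 duration was called for 57 genes, which is why they were set apart. Of these, 52 had a positive and 5 a negative slope, in edgeR's quasi-likelihood test at an adjusted p under 0.05. The slope on log2 duration differed between IFNγ 100 and 1 ng/ml for 10 genes, all steeper at 100 ng/ml, in a test of the difference itself that was chosen after the values were seen. Among 48 sets of 4 CPM values (24 named genes, each in the IFNγ 1 ng/ml and the unstimulated libraries, 1 library a duration), 9 held a library whose gap to its nearest neighbor exceeded 0.829 of the range, Dixon's 95% limit for 4 samples. The libraries of a set differ in duration as well as in sample. Chance alone flags about 1 in 20 sets of independent normal values, a rate that does not carry over to these time courses and low counts. With IFNγ, CXCL9 was low at 2 h, at 0.76 CPM (gap over range 0.878), and RASSF9 (1.24 CPM, 0.867), RASD2 (7.0 CPM, 0.881) and AXIN2 (8.82 CPM, 0.847) were high at 24 h. In unstimulated cells TNFSF18 was high at 24 h (4.15 CPM, 0.977) and SORBS2 at 12 h (3.33 CPM, 0.866). PDCD1LG2 at 2 h (0.15 CPM), GBP7 at 24 h (0.177 CPM) and ENSG00000258666 at 12 h (0.525 CPM) were each above 0 in only 1 unstimulated library, which by itself fixes the gap over range at 1.0. The log2 ratios of the same 24 genes held no such library in any of their 24 sets.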

How the results depend on the processing

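Counts of called genes moved by over 1.5 times mainly where fewer libraries or durations carried the fit. Without slopes they were 383 for IFNγ 1 ng/ml against unstimulated cells, 237 for 1 against 0.01 ng/ml, 2 for 100 against 1 ng/ml and 1580 for IFNγ against TNFα. The 2 h and 6 h libraries alone gave 51, 30, 0 and 599, the 12 h and 24 h libraries 613, 500, 69 and 1337, and only the libraries compared 254, 245, 2 and 1097. The 0 calls stand beside 291 genes lower and 482 higher at 100 ng/ml at an unadjusted p under 0.05 over all durations, counts that include chance ones. Leaving out 1 library gave 704 to 1119, 511 to 786, 7 to 32 and 1780 to 2256 calls, and 10 to 73 called slopes, where the whole set gave 1089, 784, 25, 2484 and 57. DESeq2 called 45 genes between 100 and 1 ng/ml. Apart from the removal of libraries the cause was not tested. In the last 150 bases before a start GAS letters were in 5.35% of windows of genes that rose, 3.22% of those that fell and 3.0% of all, and ISRE letters in 7.28%, 0.804% and 1.44%. Single gene results lost their call, with the direction kept, in 84 of 151 cases with only the libraries compared. The same held for 101 of 165 from the 2 h and 6 h libraries and 156 of 1448 with 1 library left out. With only the 8 libraries the edgeR adjusted p was 0.35 for HLA-B, 0.267 for CD74, 0.0725 for GBP1 and 0.0662 for IRF1, while CD274 (0.0147) and IDO1 (0.0172) kept their calls. Of 2646 repeats over 181 gene results, 2193 kept direction and call, 438 kept the direction and lost the call, and 1 gained a call. The 14 that turned sign were all of genes not called: JAK1, IFNGR1, PTPN2, CANX and TXNDC5 with 1 library left out, with ranges of -0.0139 to 0.0853, -0.2142 to 0.0294, -0.0492 to 0.1143, -0.0738 to 0.0018 and -9e-04 to 0.1202, and PSMB5 (-4e-04) and PSMB7 (-0.0255) at 2 h and 6 h. PTPN2 lay at -0.0218 at 2 h and 6 h and at -0.001 with only the 8 libraries. Libraries were matched by duration, which is a term in every fit. No pairing beyond duration was possible because the labels carry no replicate numbers. Depth limits genes near the 3-count floor.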
